A study of Mus musculus with 4 samples.

Results

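The IL-1 family genes described here are 10 genes of mouse skin: the cytokine genes Il33, Il1a, Il1b, Il18, Il36a and Il36g, the receptor antagonist genes Il1rn and Il36rn, the decoy receptor gene Il1r2 and the accessory receptor gene Il1rap. They were taken by gene name from a deposited table of 56953 genes, and all 10 were found once. They were chosen with the NEDD8i against DMSO values of this table already known, above all the high Il33 value after NEDD8i, so their own differences between the groups are given as a description with no test. RNA came from the dorsal skin of wild type C57BL/6J mice, labelled full thickness, treated on its surface for 3 days. One group (2 libraries) was given NEDD8i at 10 µM, a name that the labels do not resolve to a compound, and the other (2 libraries) was given DMSO, the solvent. The 2 groups share strain, genotype, site and duration, and the labels do not give the age of the mice or say whether the libraries of a group came from separate mice, so the p-values of pathway genes below measure only the spread between these libraries, which may be technical.

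Cytokines of the IL-1 family are danger signals of barrier tissues. IL-1α and IL-1β share a receptor, as do the IL-36 cytokines among themselves, while IL-18 and IL-33 each have their own. The bound receptor recruits a second chain (IL-1RAP, or for IL-18 a related chain) and the adaptor MyD88 and so turns on NF-κB and MAP kinases. IL-1RA and IL-36RA, the products of Il1rn and Il36rn, occupy the receptors without signalling, and IL-1R2 captures IL-1 without passing a signal on. IL-33 is an alarmin, kept in the nucleus of barrier and stromal cells and released on damage, and it acts through the receptor ST2, the product of Il1rl1, on mast cells, innate lymphoid cells and regulatory T cells. NEDD8 is a ubiquitin-like protein that activates the cullin-RING ubiquitin ligases, among them the ligase that marks the NF-κB inhibitor IκBα for destruction.

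The libraries were made with a 3′ tag method, which reads the end of each polyadenylated transcript, so a count does not grow with transcript length. The levels below are compared between libraries within a gene, and shares of counts among related genes are likewise compared between libraries. Total counts ran from 5639791 to 8856572 per library, of which 52.6% to 61.7% fell on 3 ribosomal RNA genes. Levels are given as CPM, read counts scaled to a common library size with TMM factors, and 3 counts correspond to 0.36 to 0.543 CPM. DMSO replicate 1 stood apart by its hair RNA: a list of hair shaft and inner root sheath genes summed to 6872 CPM there, against 19 CPM in DMSO replicate 2 and 15.9 and 429 CPM in NEDD8i replicates 1 and 2. The tissue label could be checked in part. Keratinocyte genes were abundant, with a basal list summing to 3030 and 5754 CPM in DMSO and 5130 and 4431 CPM after NEDD8i, whereas all 8 endothelial genes together reached only 1.09 to 2.64 CPM, with Cdh5 at 0 in all 4 libraries.

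Promoter windows from RefSeq (GRCm38.p6), 250 bases before to 50 bases from each annotated start, were found for 7 of the 10 genes, in 10 windows. The 2 windows of Il33 are shown because it has the largest difference between the groups, 1 of the 3 of Il1rn, the antagonist gene that was higher after NEDD8i, because it holds the TGANTCA match described below, and that of Il1b because its value came from 1 library. Capitals mark the letters TATAAA or TGANTCA (an AP-1 site), searched on both strands, and the NF-κB consensus, searched as well, had no match in these windows.
Il33, chr19:29924863-29925162, plus strand: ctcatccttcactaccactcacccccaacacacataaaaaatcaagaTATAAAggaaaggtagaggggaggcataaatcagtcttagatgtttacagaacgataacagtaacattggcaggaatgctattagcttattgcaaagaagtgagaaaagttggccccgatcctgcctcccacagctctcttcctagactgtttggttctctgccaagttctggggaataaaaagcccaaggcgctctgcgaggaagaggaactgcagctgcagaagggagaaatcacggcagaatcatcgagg
Il33, chr19:29945540-29945839, plus strand: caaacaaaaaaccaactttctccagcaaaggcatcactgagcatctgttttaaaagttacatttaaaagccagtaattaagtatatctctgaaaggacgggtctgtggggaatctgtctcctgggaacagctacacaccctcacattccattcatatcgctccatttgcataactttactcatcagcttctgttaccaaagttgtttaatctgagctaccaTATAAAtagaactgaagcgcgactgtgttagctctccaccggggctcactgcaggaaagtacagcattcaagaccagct
Il1rn, chr2:24336610-24336909, plus strand: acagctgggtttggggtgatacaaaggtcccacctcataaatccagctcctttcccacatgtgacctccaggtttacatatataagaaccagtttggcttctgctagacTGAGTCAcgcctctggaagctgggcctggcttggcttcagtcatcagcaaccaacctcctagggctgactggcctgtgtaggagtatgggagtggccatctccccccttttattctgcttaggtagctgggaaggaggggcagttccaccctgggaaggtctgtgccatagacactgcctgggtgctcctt
Il1b, chr2:129371090-129371389, minus strand: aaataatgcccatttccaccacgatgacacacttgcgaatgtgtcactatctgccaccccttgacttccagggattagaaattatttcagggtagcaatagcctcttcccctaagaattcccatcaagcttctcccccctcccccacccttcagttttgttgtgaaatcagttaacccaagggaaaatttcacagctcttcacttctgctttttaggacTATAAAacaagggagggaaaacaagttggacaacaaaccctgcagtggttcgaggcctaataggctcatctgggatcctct
TATAAA began 29 bases before the second start of Il33 and 31 bases before the start of Il1b, the usual distance of a TATA box, and 203 bases before the first start of Il33. TATAAA was found in 6 of the 10 windows of these genes and in 13.6% of all 32851 windows. Not all 6 lay where a TATA box does. The match in Il1a began 32 bases before the start. Those in Il18 and in a further window of Il1rn were on the opposite strand, at 175 bases before the start and at base 15 of the transcript. TGANTCA was found in 2 of the 10, one of Il1rn and the one of Il1a, and in 7.81% of all windows, and the NF-κB consensus was in 0 of the 10 and in 4.51% of all. A match is a description of the letters and not a sign of a bound factor, and no match says only that these letters are not in this window. The 3′ reads do not tell which start of Il33 was used.

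On the map given by the deposited table, with coordinates taken to be GRCm39, the genes lie in a few clusters. Il36g, Il36a, Il36rn and Il1rn follow each other on the plus strand of chromosome 2 between 24076488 and 24241506, with Il36b and Il1f10 among or beside them. Il1a and Il1b lie far along the same chromosome, on the minus strand between 129141530 and 129213059. Il1r2 (chromosome 1, 40123858 to 40164391) opens the receptor cluster with Il1r1, Il1rl2, Il1rl1, Il18r1 and Il18rap. Il33 (ENSMUSG00000024810.17, chromosome 19, 29902514 to 29938118, plus strand), Il18 (chromosome 9) and Il1rap (chromosome 16) stand alone. Along the chromosome 2 cluster the log2 fold changes, given with their errors below, were positive for Il36g and Il1rn and negative for Il36a and Il36rn, which lie between them, and for all but Il1rn they were under 2 SE from 0.

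Which of these transcripts differ after the topical treatment is the question put by setting NEDD8i against DMSO. Il33 was 15.5-fold higher, Il1rn was 2.09-fold higher, Il1b was higher mainly in 1 of the 2 NEDD8i libraries, and the remaining members differed by less than 2-fold on average. A filter on low counts kept 9 of the 10 genes, and Il1a was left out by it. In edgeR's quasi-likelihood fit over 11388 genes, 1 of these 9, Il33, was past an adjusted p of 0.05, where 0.782% of all tested genes were. Since that contrast chose the genes, nothing is read from this count. The median log2 fold change of the 9 genes was 0.46, and that of all tested genes was -0.00315.

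**Figure D1:**
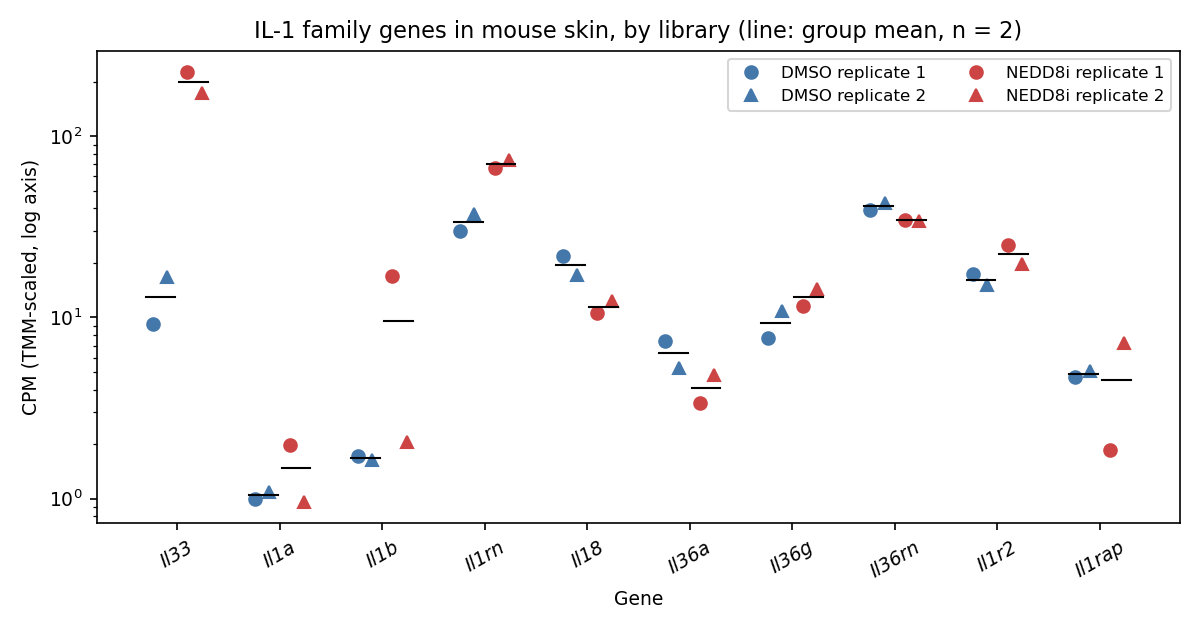
CPM (log axis) of the 10 IL-1 family genes in each of the 4 libraries; blue is DMSO, red is NEDD8i, circles are replicate 1, triangles are replicate 2 and lines are group means (n = 2). Il33 reaches 226 and 174 CPM after NEDD8i against 9.15 and 16.7 CPM in DMSO, and the 2 NEDD8i libraries lie far apart for Il1b and Il1rap.

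Il33 had 64 and 92 counts in DMSO replicates 1 and 2, and 1816 and 1449 counts in NEDD8i replicates 1 and 2. That is 9.15 and 16.7 CPM in DMSO against 226 and 174 CPM after NEDD8i. Both NEDD8i libraries were far above both DMSO libraries, and the gap between the groups was wider than the gap within either. The group means were 12.9 ± 5.31 CPM and 199.8 ± 36.4 CPM (SD over 2 libraries each), and the log2 fold change was 3.96 (SE 0.40). Within groups the libraries differed by 0.87 (DMSO) and 0.37 (NEDD8i) in size on the log2 scale. With each library left out in turn the log2 fold change was 3.57 without DMSO replicate 1, the library rich in hair RNA, and 4.45 without DMSO replicate 2. No other gene model of the table overlapped Il33.

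Fibroblasts and endothelium also make IL-33, and markers of these cells are therefore set beside it. The 8 fibroblast genes, of which Postn and in DMSO replicate 1 also Dcn held most counts, summed to 80.9 and 70.8 CPM in DMSO and to 96.1 and 148 CPM after NEDD8i. Of the 6 tested, 1, Dpt, was higher by edgeR's test and 0 were lower, beside 0.667% and 0.114% of all tested genes. At an unadjusted p under 0.05, 4 were higher and 0 lower, beside 8.62% and 7.86%. DESeq2 called 3 higher and 0 lower, beside 2.08% and 1.55%, and limma-voom 0 and 0, beside 0.220% and 0.0176%. Dpt was 9.78-fold higher (edgeR adjusted p = 0.0446). The collagen genes Col1a1, Col1a2 and Col3a1 had fitted folds of 4.33, 5.11 and 8.58 without passing, each with most counts in NEDD8i replicate 2. These folds start from low levels. Mean CPM in DMSO and after NEDD8i was 0.772 and 7.86 for Dpt, 1.98 and 8.64 for Col1a1, 2.27 and 11.6 for Col1a2, and 0.681 and 6.17 for Col3a1. The more abundant Postn and Dcn had fitted folds of 1.52 and 0.732, with overlapping groups. The 8 endothelial genes stayed at 1.09 to 2.14 CPM in DMSO and 2.36 to 2.64 CPM after NEDD8i. In RNA of mixed cells, more cells of a type and more RNA per cell cannot be told apart, and the part of the fibroblast difference in the Il33 value was not tested.

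The 5 annotated genes closest to Il33 in their pattern over the 4 libraries were picked among 8001 genes by the root mean square distance of log2 CPM, each gene centred on its own mean, so they share the Il33 difference by construction. Lce3c, of the late cornified envelope, was at a distance of 0.21, the serpin Serpinb2 at 0.24, the wound keratin Krt6a at 0.27, the cornified envelope precursor Sprr1a at 0.36 and the matrix protease Mmp3 at 0.39. Among the IL-1 family genes the closest were Il1rn and Il1b, both at 1.48, and the farthest was Il18, at 2.41.

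Il1b encodes IL-1β, which inflammasomes process before release. It had 12 and 9 counts in DMSO, and 137 and 17 counts in NEDD8i replicates 1 and 2. On the CPM scale this is 1.72 and 1.63 against 17.0 and 2.04, so that NEDD8i replicate 1 alone stood high and NEDD8i replicate 2 lay close to DMSO. The mean after NEDD8i, 9.53 ± 10.6 CPM (SD, n = 2), has an SD larger than itself, and the log2 fold change of 2.49 (SE 0.94) fell to 0.28 without NEDD8i replicate 1. The macrophage list, a possible source of IL-1β, summed to 37.1 and 29.8 CPM in NEDD8i replicates 1 and 2 (26.2 and 18.8 CPM in DMSO). In it 0 of 5 tested genes passed in edgeR's test, 1 was higher at an unadjusted p under 0.05, and 0 passed with DESeq2 or limma-voom. Of all tested genes 0.667% were higher in edgeR, 8.62% at an unadjusted p under 0.05, 2.08% by DESeq2 and 0.220% by limma-voom. The Langerhans and dendritic cell list summed to 379 and 362 CPM after NEDD8i against 255 and 208 CPM in DMSO. In it 0 of 6 tested genes passed in edgeR, and 0 passed with DESeq2 or limma-voom. At an unadjusted p under 0.05, 3 were higher (Cd207 at 2.97-fold, Cd74 at 1.77-fold and Epcam at 1.70-fold), where 8.62% of all tested genes were. The other tested genes were H2-Aa at 1.25-fold, H2-Ab1 at 1.24-fold and Itgax at 0.889-fold. Epcam alone held 97.9 and 74.4 CPM of this sum in DMSO and 153 and 140 CPM after NEDD8i. In the neutrophil list Ly6g, Camp, Ltf and Ngp were at 0 in all 4 libraries, and its sum of 128 and 84.8 CPM after NEDD8i against 17.9 and 20.6 CPM in DMSO came mostly from S100a8 and S100a9, which keratinocytes also express. Cxcr2 of this list was at 1.57 and 5.98 CPM in DMSO and 9.31 and 5.29 CPM after NEDD8i, with overlapping groups. Of 3 tested genes 1, S100a8, was higher in edgeR, 2 at an unadjusted p under 0.05, 1 by DESeq2 and 0 by limma-voom. The part of these cells in the Il1b value was not tested.

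Il1a, which encodes IL-1α, was near the limit of detection. It had 7 and 6 counts in DMSO and 16 and 8 counts after NEDD8i. The groups overlapped in CPM, and the ratio of the summed counts, 1.41, had a 95% counting interval of 0.691 to 3.02, so no difference was detectable at this depth. The predicted gene Gm14023 on the opposite strand shares 444 exonic bases with Il1a and held 5 to 11 counts per library, and whether the counting used strand is not stated in the labels or the table.

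Il1rn encodes the antagonist of the IL-1 receptor. It had 211 and 205 counts in DMSO and 535 and 618 counts after NEDD8i. In CPM it was at 30.2 and 37.1 against 66.4 and 74.2, the libraries of each group lying close together and the groups apart. The means were 33.6 ± 4.93 and 70.3 ± 5.52 CPM (SD over 2 libraries each), and the log2 fold change was 1.06 (SE 0.28). It ranged from 0.91 to 1.22 with a library left out.

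As a share of all counts on Il1a, Il1b and Il1rn, the antagonist took 91.7% in DMSO replicate 1 (exact 95% binomial interval 87.4 to 94.95) and 93.2% in DMSO replicate 2 (89.0 to 96.1). It took 77.8% in NEDD8i replicate 1 (74.5 to 80.8) and 96.1% in NEDD8i replicate 2 (94.3 to 97.5). The NEDD8i libraries thus lay on either side of the DMSO libraries, the lower one being the library with the high Il1b count. Intervals here cover counting error only.

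**Figure D2:**
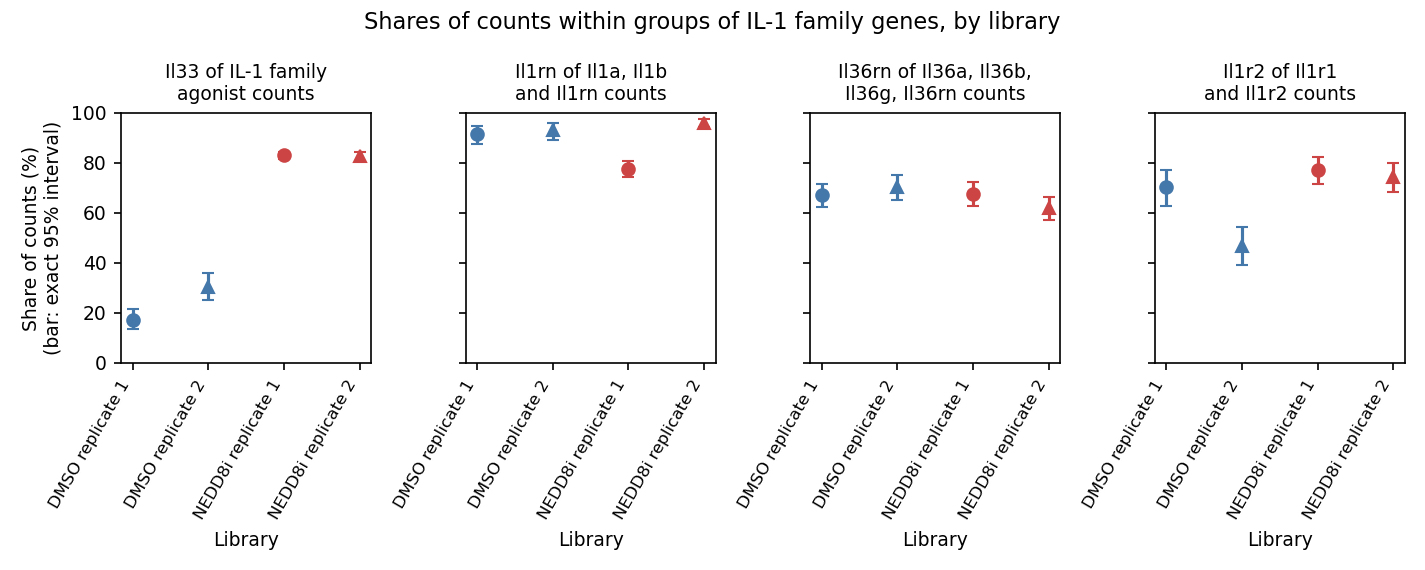
Share of counts (%, with exact 95% binomial intervals) by library for 4 groups of genes; blue is DMSO and red is NEDD8i. Il33 goes from 17.3% and 30.5% of IL-1 family agonist counts in DMSO to 83.0% and 82.8% after NEDD8i, while the Il1rn and Il36rn shares do not separate the groups.

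Il33 also took a changed share of the family's own counts. Among the counts of the agonist genes Il33, Il18, Il1a, Il1b, Il36a, Il36b and Il36g, it held 17.3% and 30.5% in DMSO and 83.0% and 82.8% after NEDD8i. This share does not depend on how the libraries were scaled, and the DMSO libraries differed from each other by more than the NEDD8i libraries did.

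The IL-36 genes, which keratinocytes make in the upper epidermis, differed by less than 2-fold. Of 7 suprabasal keratinocyte markers, set beside them, Lor was lower (log2 fold change -3.05, adjusted p = 0.0377 in edgeR) and the others did not pass, Flg being at -2.34 (adjusted p = 0.0548 in edgeR). Ivl went the other way, with a log2 fold change of 0.64 and both NEDD8i libraries above both DMSO libraries. Krt10 was at -0.68 with the groups apart. Dsc1, Krt1 and Dsg1a were at -1.04, -0.53 and -0.43 with overlapping groups. At an unadjusted p under 0.05, 3 were lower and 0 higher, DESeq2 called 2 lower and 0 higher, and limma-voom 0 of either. Of all tested genes 0.114% were lower in edgeR, 7.86% at an unadjusted p under 0.05, 1.55% by DESeq2 and 0.0176% by limma-voom. This list summed to 4132 and 7587 CPM in DMSO and 3867 and 3373 CPM after NEDD8i, and its part in the IL-36 values was not tested. Il36g had 54 and 60 counts in DMSO and 93 and 119 counts with NEDD8i, or 7.72 and 10.9 CPM against 11.5 and 14.3 CPM. Its groups did not overlap but came within 1 CPM of each other, with a log2 fold change of 0.48 (SE 0.37). Il36a went the other way, with 52 and 29 counts in DMSO and 27 and 40 counts with NEDD8i and a log2 fold change of -0.64 (SE 0.47). Its replicates differed by 0.50 (DMSO) and 0.52 (NEDD8i) in size on the log2 scale, nearly as much as the groups did.

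Il36rn, the antagonist of this branch, differed little between libraries. It had 273 and 237 counts in DMSO and 279 and 284 counts with NEDD8i, which is 39.0 and 42.9 CPM against 34.6 and 34.1 CPM, a log2 fold change of -0.25 (SE 0.27). The Il36rn share of the counts on Il36a, Il36b, Il36g and Il36rn was 67.2% and 70.3% in DMSO and 67.7% and 62.0% after NEDD8i, and the groups overlapped.

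Il18 encodes a cytokine that keratinocytes hold as a precursor, and its transcript was lower after NEDD8i. It had 153 and 95 counts in DMSO and 85 and 103 counts with NEDD8i. Scaled to CPM this is 21.9 and 17.2 against 10.6 and 12.4, so that both NEDD8i libraries were below both DMSO libraries. The log2 fold change was -0.77 (SE 0.33), and it ran from -0.93 to -0.60 with a library left out. Il18 was thus opposite in sign to Il33.

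Il1r2, the decoy receptor, had 121 and 83 counts in DMSO and 201 and 164 counts with NEDD8i, or 17.3 and 15.03 CPM against 25.0 and 19.7 CPM. The groups were apart, though the difference within NEDD8i was larger than the gap between the groups, and the log2 fold change was 0.46 (SE 0.32). Of the counts on Il1r2 and the signalling receptor gene Il1r1, Il1r2 held 70.3% in DMSO replicate 1, 46.9% in DMSO replicate 2, and 77.3% and 74.5% in NEDD8i replicates 1 and 2. The low share of DMSO replicate 2 came with its high Il1r1 level of 17.0 CPM, where the other libraries had 6.73 to 7.33 CPM.

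Il1rap encodes the chain that the receptors for IL-1, IL-33 and IL-36 share. It had 33 and 28 counts in DMSO and 15 and 60 counts after NEDD8i. In CPM the DMSO libraries, at 4.72 and 5.07, lay between NEDD8i replicate 1 at 1.86 and NEDD8i replicate 2 at 7.21. Its log2 fold change of -0.11 (SE 0.63) became 0.56 without NEDD8i replicate 1 and -1.42 without NEDD8i replicate 2, so no direction is given. Gm20319, a gene on the opposite strand that shares 1412 exonic bases with Il1rap, had 0 counts in all 4 libraries.

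**Figure D3:**
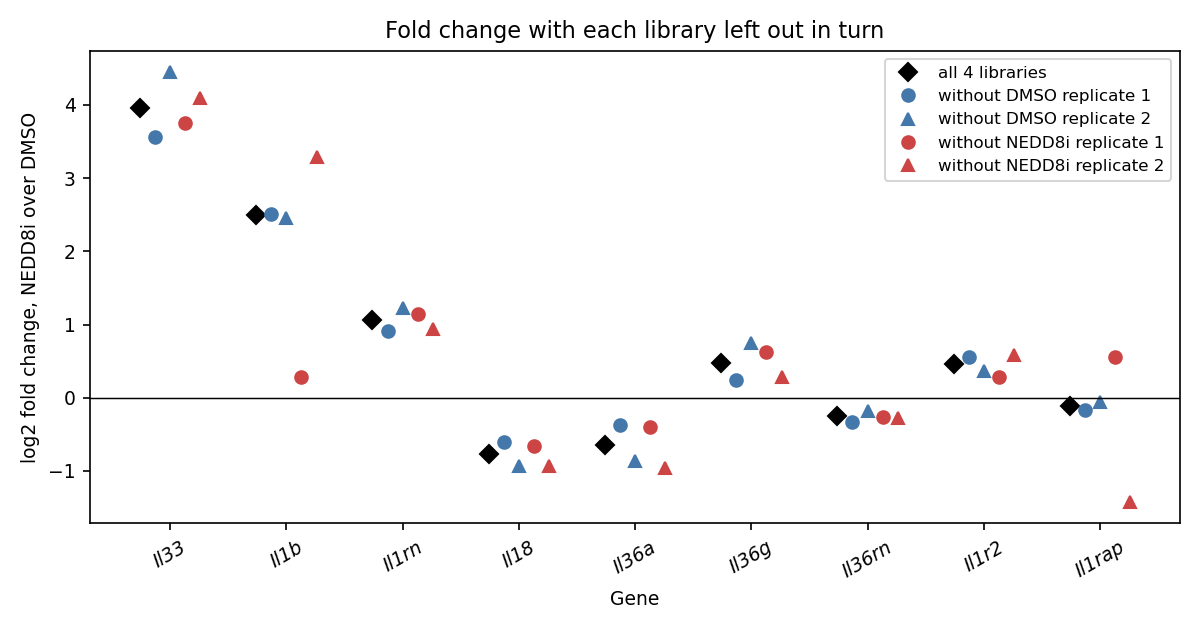
Log2 fold change of the 9 tested IL-1 family genes with all 4 libraries (black) and with each library left out (blue: a DMSO library, red: a NEDD8i library). Il33 stays between 3.57 and 4.45, whereas Il1b drops to 0.28 without NEDD8i replicate 1 and Il1rap changes sign.

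Over the family, 5 of the 9 tested genes (Il33, Il1b, Il1rn, Il36g and Il1r2) had both NEDD8i libraries above both DMSO libraries, and 3 (Il18, Il36a and Il36rn) had both below. Of all 11388 tested genes 25.0% were above in this way and 22.9% below, 47.9% in all. With 2 libraries a group an exact permutation test of a single gene cannot give a p below 0.333.

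Genes around the family were taken from 6 lists of the pathway. Of 114 listed genes, 67 passed the filter and 16 had no count in any library. In the edgeR test, adjusted over all 11388 genes by Benjamini and Hochberg, 5 of the 67 rose and 0 fell, beside 0.667% of all tested genes higher and 0.114% lower. At an unadjusted p under 0.05 there were 17 higher and 3 lower, where 8.62% of all tested genes were higher and 7.86% lower. DESeq2 called 11 higher and 0 lower, beside 2.08% and 1.55% of all genes, and limma-voom 1 higher and 0 lower, beside 0.220% and 0.0176%. The same shares of all genes stand behind the numbers given for each list below. The median log2 fold change of the 67 genes was 0.40. Which libraries were kept mattered for some of these genes. The log2 fold change of Il1r1 was -1.29 without DMSO replicate 1 and -0.05 without DMSO replicate 2, and that of Rora was -1.05 and -0.03. Capn2 stayed between 2.64 and 2.81 with a library left out. In such a fit 1 group has a single library and no spread of its own, so the genes passing in it are not counted here. These lists were drawn up with earlier results of these data known.

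Receptors did not pass the test. Of 9 listed receptor and decoy genes 4 could be tested and 0 passed in edgeR's test, 1 at an unadjusted p under 0.05, 1 by DESeq2 and 0 by limma-voom. The nearest was Il1rl2, the receptor for IL-36, at 25.6 and 25.2 CPM in DMSO and 78.2 and 51.1 CPM with NEDD8i (log2 fold change 1.35 ± 0.31 SE, adjusted p = 0.0897 in edgeR). Both NEDD8i libraries were above both DMSO libraries for Il1rl2, and it passed with DESeq2 but not with limma-voom. Its log2 fold change ran from 1.01 to 1.59 with a library left out. Il1r1 had a log2 fold change of -0.78 ± 0.46 SE (adjusted p = 0.454 in edgeR), Il18r1 of -0.31 (SE 0.57) and Il18rap of 1.10 (SE 1.01), and none of these passed with all 4 libraries.

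Il1rl1, the receptor of IL-33, was hardly seen in any library. It had 2 and 0 counts in DMSO and 2 and 4 counts after NEDD8i, at most 0.481 CPM, so a difference could not be judged at this depth. Of 20 genes of cells that respond to IL-33, 7 could be tested and 0 passed in edgeR's test, 2 higher at an unadjusted p under 0.05, 2 by DESeq2 and 0 by limma-voom. The 2 with most counts, Gata3 and Rora, transcription factors that the epidermis also expresses, had log2 fold changes of -0.67 (SE 0.31) and -0.62 (SE 0.38). Il4, Il9, Foxp3, Ccl17, Cpa3 and Klrg1 had no count in any library, and in the shallowest one a count of 0 still allows 0.543 CPM. Of 7 mast cell markers, Cpa3, Cma1 and Fcer1a were at 0 throughout and the list summed to 1.45 to 3.00 CPM in DMSO and 1.56 to 3.73 CPM after NEDD8i. Of 8 T cell and innate lymphoid cell markers 7 could be tested and 0 passed in edgeR's test. At an unadjusted p under 0.05, 1 was higher (Il7r at 3.02-fold) and 0 lower. DESeq2 called 1 higher and 0 lower, and limma-voom 0. Cd3d, Cd3e, Cd3g, Trdc, Thy1 and Gata3 had fitted folds of 0.554 to 0.874.

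Among 29 genes for the processing and release of these cytokines 18 could be tested, and 1 rose and 0 fell in edgeR's test. At an unadjusted p under 0.05, 2 were higher and 3 lower (Casp1, Nlrp10 and Pycard). DESeq2 called 1 higher and 0 lower, and limma-voom 1 and 0. The median log2 fold change of the 18 was -0.21. The gene that rose was Capn2, a calpain subunit gene, calpains being proteases that cleave the IL-1α precursor. Capn2 had 50 and 36 counts in DMSO and 354 and 400 counts with NEDD8i, or 6.83 ± 0.44 against 46.0 ± 2.89 CPM (SD, n = 2 each), and its log2 fold change was 2.75 (SE 0.31) with an adjusted p = 0.00959 in edgeR. With all 4 libraries Capn2 also passed with DESeq2, limma-voom, RLE factors, no TMM, no ribosomal RNA genes and no filter. It passed as well with a filter of 20 counts in 2 libraries, a replicate block and the crossed pairing that was added later. Capn1, also a calpain gene of this list and named after its values were seen, did not rise. Its DMSO libraries held 65.3 and 116 CPM, far more than those of Capn2, and its NEDD8i libraries 65.2 and 60.3 CPM. The fitted fold of Capn1 was 0.694, without passing in edgeR's test. A rise of calpain transcripts as a whole was therefore not shown. Inflammasome genes went both ways without passing, and the following were named after their values were seen. Nlrp3, a sensor, had 1 and 0 counts in DMSO and 28 and 22 counts with NEDD8i, so that its level was 38.2 times that in DMSO (95% interval from counting error 6.55 to 1539, adjusted p = 0.0732 in edgeR). Casp1, the protease that activates IL-1β and IL-18, was at 6.72 and 13.04 CPM in DMSO and 3.23 and 3.12 CPM with NEDD8i (log2 fold change -1.62 ± 0.48 SE, adjusted p = 0.146 in edgeR).

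Of 28 signalling genes downstream of the receptors 26 could be tested and 0 passed in edgeR's test, though 5 were higher and 0 lower at an unadjusted p under 0.05, 2 were called higher by DESeq2 and 0 by limma-voom. Myd88, the shared adaptor, was at 24.6 and 27.5 CPM in DMSO and 52.5 and 65.7 CPM with NEDD8i (log2 fold change 1.18 ± 0.29 SE, adjusted p = 0.0993 in edgeR). It passed with DESeq2 but not with limma-voom, and its log2 fold change ran from 0.97 to 1.33 with a library left out. The 2 with most counts were Nfkbia, which encodes IκBα, with a log2 fold change of 0.56 (SE 0.36), and Nfkbiz, with 0.67 (SE 0.37).

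Among genes known to respond to IL-1 or IL-36 in other settings 11 of 26 could be tested, and 4 rose and 0 fell in edgeR's test, with 7 higher and 0 lower at an unadjusted p under 0.05, 5 higher and 0 lower by DESeq2 and 0 by limma-voom. Il24, an IL-20 subfamily cytokine, had 0 and 2 counts in DMSO and 91 and 122 counts with NEDD8i, so that its level was 81.4 times that in DMSO (95% interval from counting error 22.3 to 677, adjusted p = 0.0157 in edgeR). Defb14, a beta-defensin, was at 0.324 ± 0.054 against 6.38 ± 2.74 CPM (SD, n = 2 each), with an edgeR adjusted p = 0.0403. The prostaglandin synthase gene Ptgs2 and the calgranulin gene S100a8 had log2 fold changes of 2.68 (SE 0.38) and 2.28 (SE 0.37), with adjusted p = 0.0186 and 0.0347 in edgeR. The neutrophil chemokine gene Cxcl2, named after its values were seen, was at 14.3 and 10.9 CPM in DMSO and 47.2 and 31.96 CPM after NEDD8i without passing (edgeR adjusted p = 0.0673). With a library left out the log2 fold change ran from 2.39 to 2.99 for Ptgs2 and from 1.93 to 2.74 for S100a8. It ran from 3.72 to 4.58 for Defb14 and from 5.09 to 9.66 for Il24. All 4 of these response genes were lost with limma-voom, and S100a8 and Defb14 also with library sizes without TMM.

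**Figure D4:**
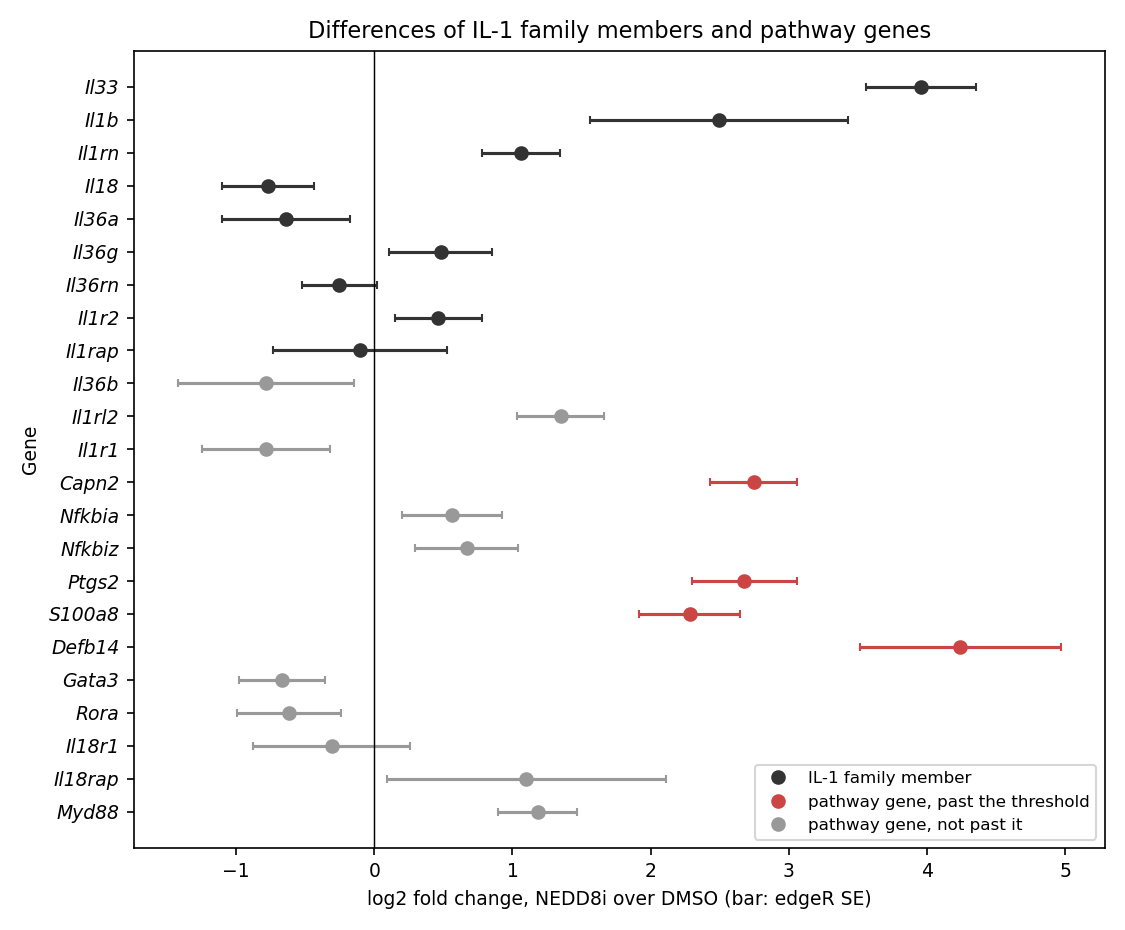
Log2 fold change of NEDD8i over DMSO with the edgeR SE for the tested IL-1 family genes (black, described without a test) and named pathway genes past the threshold (red) or not (grey). Capn2, Ptgs2, S100a8 and Defb14 are the red points, and Il24, which has 2 DMSO counts in all, is not drawn.

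Il36b, the remaining detected ligand of the family, had 27 and 11 counts in DMSO and 13 and 15 counts with NEDD8i (log2 fold change -0.78 ± 0.64 SE, adjusted p = 0.605 in edgeR). Il1f10 had no count in any library.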

How the data were processed

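RNA of 4 skin libraries was prepared with a QuantSeq 3′ FWD kit, per the labels' protocols. The extraction text speaks of cells, the treatment text of full thickness skin. The authors deposited raw read counts per gene. The submitters' processing notes name the tools STAR, featureCounts and DESeq2; versions, settings, and the treatment of strand, multimapping reads and molecular identifiers are not given in the sources used here. The notes name GRCm38 and GRCm39. Starts equal to those of GENCODE M21, which is on GRCm38, were found for 2.7% of 52029 shared genes and for 0 of the 10 members, so the table's coordinates are taken to be GRCm39.

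Groups and replicate numbers came from the sample titles, and 0 sample columns were left unused. Counts were tested in R 4.3.3 with edgeR 4.0.16 (TMM, filterByExpr with a minimum count of 10 and total of 15, robust quasi-likelihood F test, Benjamini-Hochberg over 11388 genes at 0.05, model with the group alone). SE is the size of the log2 fold change divided by the square root of F. In all, 89 genes passed. The common dispersion was 0.12. Shares have exact binomial intervals. The fit was tested on simulated data.

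Named genes were the 10 members, pathway genes past the threshold or else the 2 with most counts of a list, fixed receptors and Myd88, and the 5 genes closest to Il33 with a mean log2 CPM of at least 2 (prior count 2). The members and all lists were chosen with earlier results of these data known. Alternatives were DESeq2 1.42.0, limma-voom (limma 3.58.1), RLE factors, no TMM, no ribosomal RNA genes, no filter, a filter of 20 counts in 2 libraries, a replicate block and each library left out.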

Additional observations from a re-analysis of the deposited data

How the results depend on the processing

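With all 4 libraries 89 genes, 1 family member (Il33) and 5 pathway genes passed. The members were chosen on this contrast, so their numbers under the settings below are no support for them. The log2 fold change of Il33 ran from 3.57 to 4.45 with a library left out. Numbers of genes, members and pathway genes past the threshold were 47, 1 and 3 with library sizes without TMM, which moved the median log2 fold change of all genes to -0.22, and 703, 3 and 14 with no filter, where Il1rn and Il1b joined Il33. They were 141, 1 and 5 with a filter of 20 counts in 2 libraries, 27, 1 and 1 with limma-voom and 414, 1 and 11 with DESeq2. With a library left out the genes numbered from 31 (without NEDD8i replicate 2) to 1101 (without DMSO replicate 1), the members from 1 to 2 and the pathway genes from 2 to 20. A group then has 1 library, assumed to vary like the other group. RLE factors and leaving out the ribosomal RNA genes kept all 3 numbers within 1.5 times. With the replicate number as a block 285 genes, 1 member and 9 pathway genes passed. The deviations of same-numbered libraries were only weakly related, with a negative sign (correlation over genes -0.13), so the block is not taken as a pairing. With the crossed pairing, added after seeing the data, 483 genes, 1 member and 11 pathway genes passed. Il1a was tested only with no filter, and Il1b, Il36b, Il18r1 and Il18rap could not be tested with 20 counts in 2 libraries. The cause of these shifts was not tested. At 6 to 16 counts per library Il1a is limited by depth, whereas for Il1b the 2 NEDD8i libraries disagree, at 137 and 17 counts.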

Other observations

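Several low-count immune genes had most or all of their counts in 1 of the 4 libraries. NEDD8i replicate 1 held 9 counts of Il18bp, the soluble IL-18 inhibitor, 6 of Il13, 5 of Il19, 5 of the mast cell protease gene Mcpt4 and 4 of Nlrc4, while NEDD8i replicate 2 and both DMSO libraries held 0 of each. NEDD8i replicate 2 held 4 counts of the chemokine gene Ccl24 and 4 of the mast cell gene Ms4a2, and the other libraries 0 of each. Ccl22 had 2 and 1 counts in DMSO and 0 and 12 with NEDD8i. These genes were chosen after their values were seen, and no test was made.

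Hdc, the histidine decarboxylase gene that makes histamine, had no count in DMSO and 30 and 13 counts after NEDD8i, at least 10.96-fold higher over a floor of 3 counts for the DMSO group (edgeR adjusted p = 0.088). It passed with DESeq2 but not with limma-voom. The 7 mast cell markers summed to 30 and 13 counts in the same NEDD8i libraries and to 21 and 8 counts in DMSO, most of them on Kit, and the part of these cells in the Hdc value was not tested. Areg, an EGF receptor ligand, was at 24.01 and 12.7 CPM in DMSO and 46.7 and 72.7 CPM after NEDD8i and did not pass (edgeR adjusted p = 0.0866), though it did with DESeq2 and again not with limma-voom. Sigirr, an inhibitory receptor of the family, had 4 and 5 counts in DMSO and 0 in both NEDD8i libraries.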
